A study of Homo sapiens with 14 samples.

Results

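The comparison set KYSE510 cells transfected with siLAT1-3, a small interfering RNA (siRNA) against the amino acid transporter LAT1, against the same cells transfected with the negative control siRNA siNC. The members were the 2 siLAT1-3 libraries and the 2 siNC libraries made in the same experiment, 4 of the 14 samples of the series and 4 of its 12 RNA-seq libraries. They were taken by the siRNA named in their labels. KYSE510 is a human cell line from a squamous carcinoma of the esophagus. All cells were grown in RPMI-1640 with fetal bovine serum, received their siRNA with the transfection reagent RNAiMAX and were held for 48 h before total RNA was extracted. The table that holds these libraries has 2 further libraries of cells that received siLAT1-2, another siRNA against LAT1, and these are used only to show where siLAT1-3 differed. Silencing of EZH2 and mapping of EZH2 on chromatin, which the series also holds, are not analysed here. The labels do not say whether a group's libraries were separate cultures. Every p-value therefore reflects the spread among these libraries alone, possibly a technical one.

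LAT1 is the light chain, encoded by SLC7A5, of a plasma membrane exchanger that brings leucine, methionine and other large neutral amino acids into the cell and lets glutamine out. It reaches the membrane bound to the heavy chain 4F2hc, encoded by SLC3A2, and many squamous carcinomas carry a great deal of it. Cells short of amino acids are known to engage the kinase GCN2, the transcription factor ATF4 and its target genes, and to lower the activity of mTORC1, the kinase complex that couples growth to leucine supply. Methionine taken up by LAT1 also feeds S-adenosylmethionine, the methyl donor of EZH2, the histone H3 lysine methyltransferase of Polycomb repressive complex 2 (PRC2), and the study asked how LAT1 and EZH2 bear on each other.

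Each library listed 63677 genes in FPKM, reads or fragments counted per gene and scaled by gene length and library depth. Between 11634 and 11794 genes stood at 1 FPKM or more. Depth estimated from the steps between low values was 12800000 and 13320000 counted reads or fragments in the siLAT1-3 libraries, 14220000 and 13200000 in the siLAT1-2 libraries, and 16740000 and 13560000 in the siNC libraries. Libraries of 1 group correlated at r = 0.9932 to 0.9947 across genes on the log2 scale, and a siLAT1-3 library with a siNC library at 0.9814 to 0.9824. The cells carried the markers of squamous epithelium. All 15 markers averaged at least 1 FPKM, with the basal keratin KRT5 the highest at 468 FPKM. Their summed level ran from 1104 to 1128 FPKM with siLAT1-3 and stood at 1150 FPKM in both siNC libraries. Of the 15, 3 were called higher with siLAT1-3 than with siNC (against 17.9% of all genes) and 6 lower (against 13.6%). Of 11 fibroblast markers 1 reached 1 FPKM on average (COL1A1, 2.0 FPKM), of 15 immune markers 0, and of 8 endothelial markers 1 (CDH5, 1.02 FPKM). Neither COL1A1 nor CDH5 was called, and MS4A1, PECAM1 and KDR were listed at 0 in every library.

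SLC7A5 (ENSG00000103257), the siRNA target, checked the labels. It stood at 106.6 and 107 FPKM in the siLAT1-3 libraries, 86.3 and 80.4 FPKM in the siLAT1-2 libraries, and 407 and 413 FPKM in the siNC libraries. Both siLAT1-3 libraries thus lay far under both siNC libraries and slightly above both siLAT1-2 libraries. The mean was 107 ± 0.318 FPKM with siLAT1-3 and 410.3 ± 4.39 FPKM with siNC (SD, n = 2 each), so 26.0% of the siNC level remained. The log2 fold change was -1.93 (SE 0.0367) with a limma adjusted p of 1.835e-06. Here and below a fold change is siLAT1-3 minus siNC on the log2(FPKM + 1) scale, which understates the change of genes with few FPKM. A gene is called at a two-sided limma adjusted p under 0.05 over all genes tested. In such bulk samples, fewer cells of a type and less RNA per cell cannot be told apart.

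The partner gene fell as well. SLC3A2 (ENSG00000168003) stood at 66.2 and 65.0 FPKM with siLAT1-3, 53.3 and 53.1 FPKM with siLAT1-2, and 128 and 133 FPKM with siNC. It fell by 0.98 on the log2 scale (SE 0.0306, adjusted p = 1.089e-05), to 50.3% of siNC, and no siLAT1-3 library reached a siNC library. Both transporter genes were lowered less by siLAT1-3 than by siLAT1-2. The difference between the siRNAs was 0.36 for SLC7A5 (95% interval 0.27 to 0.44, adjusted p = 8.03e-04) and 0.30 for SLC3A2 (0.22 to 0.37, adjusted p = 8.01e-04) on the log2 scale.

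EZH2 (ENSG00000106462) stood at 17.3 and 16.2 FPKM with siLAT1-3, 16.8 and 18.4 FPKM with siLAT1-2, and 17.7 and 18.0 FPKM with siNC. Its log2 fold change was -0.09, with a 95% interval from -0.22 to 0.04 (adjusted p = 0.263), and it was not called in any of the alternatives tried. The interval leaves room for a fall of up to 0.22 on the log2 scale. The plot of 8 genes by library sets SLC7A5, SLC3A2 and EZH2 beside genes described further on.

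**Figure D1:**
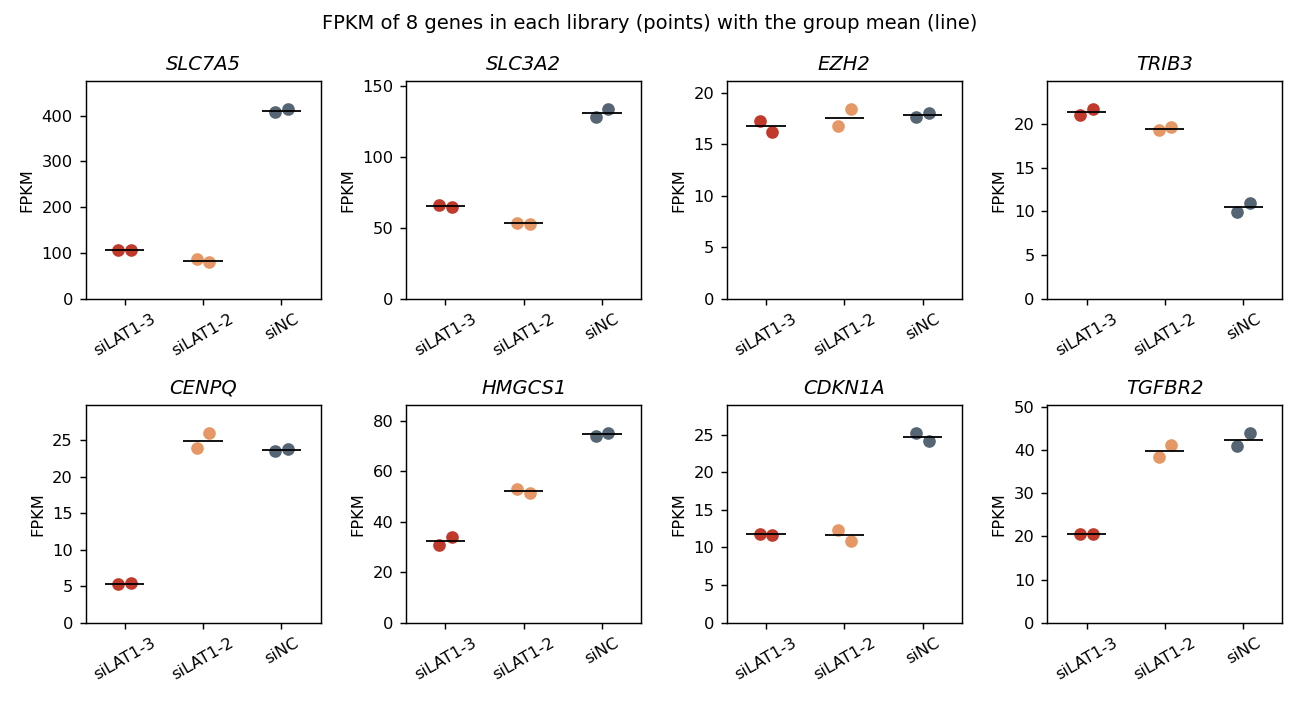
FPKM of 8 genes (vertical axes, each starting at 0) in the siLAT1-3, siLAT1-2 and siNC libraries (points, 2 a group) with the group mean (line). SLC7A5, SLC3A2 and CDKN1A lie under siNC with both LAT1 siRNAs and TRIB3 above it, EZH2 overlaps between siLAT1-2 and the other groups, and CENPQ and TGFBR2 lie far under both other groups with siLAT1-3.

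Across the transcriptome the change with siLAT1-3 was broad and mostly small. Of 11678 genes that averaged 1 FPKM or more across the 6 libraries, 3672 were called (31.4%), 2086 higher (17.9%) and 1586 lower (13.6%). The groups did not overlap for 7827 genes (67%). Only 48 genes rose (0.411%) and 49 fell (0.42%) by at least 1 on the log2 scale. The median change over all genes was 0.018. Leaving out siNC replicate 1 gave 2138 calls and leaving out siNC replicate 2 gave 2215. The count of higher genes was 1384, 1199 and 1287 on leaving out siLAT1-3 replicate 1, siNC replicate 1 and siNC replicate 2, and that of lower genes 939 and 928 on leaving out siNC replicates 1 and 2. Quantile normalization gave 1843 higher and 1769 lower. With 2 libraries against 2, an exact permutation test cannot give a p under 0.333, so calls rest on the spread that limma pools across genes. The 17.9% and 13.6% are the background for the counts of each gene list. Neither the lists nor their medians were tested against other genes, and some genes stand in several lists.

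**Figure D2:**
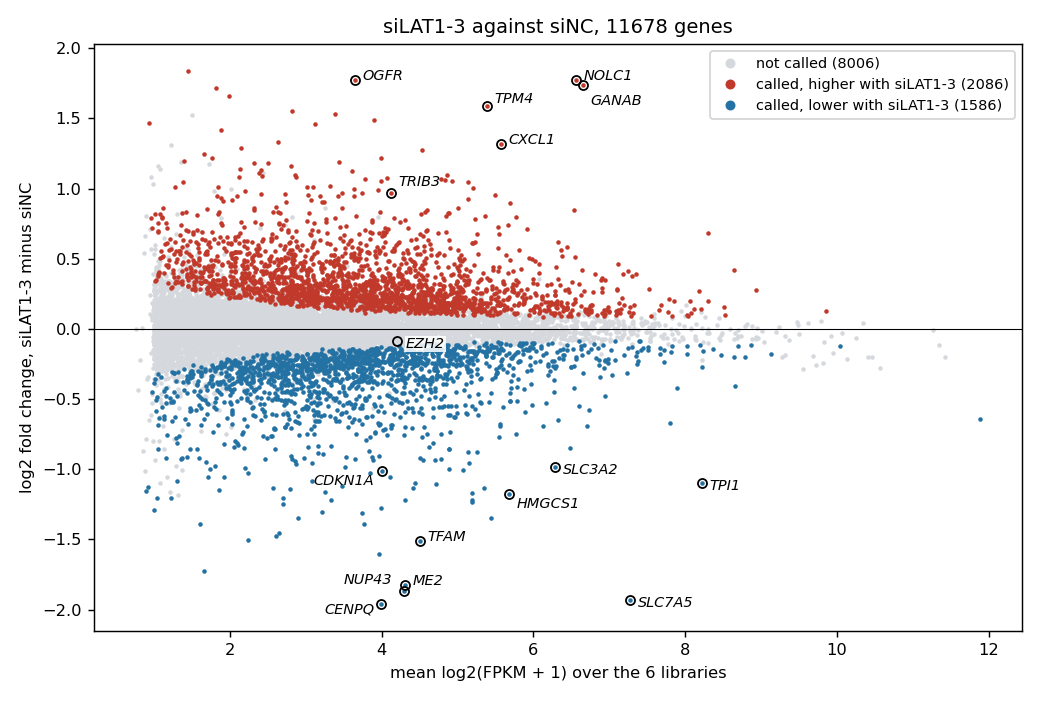
Log2 fold change of siLAT1-3 minus siNC (vertical axis) against the mean log2(FPKM + 1) over the 6 libraries (horizontal axis) for 11678 genes, each a point coloured by its call. Most of the 3672 called genes lie within 1 of no change, SLC7A5 and SLC3A2 are among the few abundant genes that fell by about 1 or more, and EZH2 lies near 0.

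Among genes with a mean log2 level of at least 2, the 15 with the largest called rises, of which 14 are described, included genes of the nucleolus, the endoplasmic reticulum and the cytoskeleton. NOLC1, a phosphoprotein of the nucleolus, stood at 157 and 155 FPKM with siLAT1-3, 116 and 119 FPKM with siLAT1-2, and 43.9 and 45.8 FPKM with siNC (log2 1.78, adjusted p = 1.315e-06). GANAB, the catalytic subunit of glucosidase II, which trims sugars from new glycoproteins, stood at 163 and 165, 124 and 123, and 47.9 and 49.0 FPKM in the same order (log2 1.74, adjusted p = 1.18e-06). For both genes the siLAT1-3 libraries were the highest of the 6 and the siNC libraries the lowest. OGFR, the opioid growth factor receptor, stood at 17.3 and 18.2 FPKM with siLAT1-3, 18.7 and 17.4 FPKM with siLAT1-2, and 4.6 and 4.37 FPKM with siNC (log2 1.77, adjusted p = 8.46e-06). TPM4, a tropomyosin that lies along actin filaments, stood at 59.3 and 57.8 FPKM with siLAT1-3, 61.3 and 61.4 FPKM with siLAT1-2, and 19.3 and 18.2 FPKM with siNC (log2 1.59, adjusted p = 4.43e-06). For OGFR and TPM4 the siLAT1-3 libraries lay beside the siLAT1-2 libraries, far above siNC.

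The others of these 14 were RGS19, a regulator of G protein signalling (log2 1.55), ZW10, a kinetochore protein (1.49), the neutrophil chemokine gene CXCL1 (1.32), POLR2D, a subunit of RNA polymerase II (1.28), and the dynein adaptor gene BICD2 (1.22). A further 4 were zinc finger genes, ZNF845 (1.46), ZNF138 (1.33), ZNF761 (1.19) and ZNF629 (1.18). The last was the microRNA gene MIR647 (1.29), whose FPKM correspond to between 2 and 11 reads a library, and which lost its call without siLAT1-3 replicate 2 (adjusted p = 0.0945) or siNC replicate 2 (adjusted p = 0.0604). Against the same siNC libraries, siLAT1-2 gave these 14 genes log2 fold changes from -0.27 for MIR647 to 1.79 for OGFR. In the direct comparison 3 of the 14 were higher with siLAT1-3 than with siLAT1-2, NOLC1, GANAB and MIR647, against 12.4% of all genes. Another 4 were lower, ZNF138, CXCL1, BICD2 and ZNF761, against 13.1%. The remaining 7 were not called different. These genes were picked on the siLAT1-3 libraries that enter the comparison with siLAT1-2.

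The 15 genes with the largest called falls were SLC7A5 and 14 others, most of them close to siNC with siLAT1-2. CENPQ, a protein of the inner kinetochore, stood at 5.27 and 5.41 FPKM with siLAT1-3, 23.9 and 26.0 FPKM with siLAT1-2, and 23.6 and 23.8 FPKM with siNC. Its log2 fold change of -1.96 (SE 0.0471, adjusted p = 4.43e-06) was slightly beyond that of SLC7A5. NUP43, a nuclear pore protein, stood at 7.02 and 7.93 FPKM with siLAT1-3, 27.3 and 29.0 FPKM with siLAT1-2, and 28.9 and 30.9 FPKM with siNC (log2 -1.87, adjusted p = 1.31e-05). ME2, the mitochondrial malic enzyme, stood at 7.31 and 7.75, 29.5 and 29.3, and 28.2 and 30.3 FPKM in the same order (log2 -1.82, adjusted p = 5.21e-06). For CENPQ, NUP43 and ME2 only the siLAT1-3 libraries were low. TFAM, the transcription factor that packs and transcribes mitochondrial DNA, stood at 10.4 and 9.28 FPKM with siLAT1-3, 33.3 and 34.4 FPKM with siLAT1-2, and 30.7 and 28.8 FPKM with siNC (log2 -1.51, adjusted p = 1.42e-05). FAM20B, a kinase that acts on the sugar linker of proteoglycans, stood at 6.42 and 6.4 FPKM with siLAT1-3, 22.1 and 21.2 FPKM with siLAT1-2, and 22.2 and 20.8 FPKM with siNC (log2 -1.60, adjusted p = 8.46e-06). TFAM and FAM20B likewise were low in the siLAT1-3 libraries alone.

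The other 9 were the sorting nexin gene SNX24 (log2 -1.47), FAM210B (-1.46), the nucleotidase gene ENTPD7 (-1.39), SPAST, the microtubule-severing enzyme spastin (-1.35), MTA2, a subunit of the NuRD deacetylase complex (-1.34), VMA21, an assembly factor of the vacuolar proton pump (-1.31), the ubiquitin ligase gene NEDD4 (-1.31), TGM2, tissue transglutaminase (-1.28), and the microRNA gene MIR4263 (-1.505). MIR4263 rested on 1 to 10 reads a library, and its adjusted p was 0.0792, 0.0579 and 0.0886 without siLAT1-3 replicate 2, siNC replicate 1 and siNC replicate 2. Against the same siNC libraries, siLAT1-2 gave CENPQ a log2 fold change of 0.07, NUP43 -0.08, ME2 0.01, FAM20B 0.01, TFAM 0.18, ENTPD7 -0.67 and SLC7A5 -2.29. In the direct comparison 14 of the 15 were lower with siLAT1-3 than with siLAT1-2, against 13.1% of all genes, and 1, SLC7A5, was higher. These genes too were picked on the siLAT1-3 libraries.

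**Figure D3:**
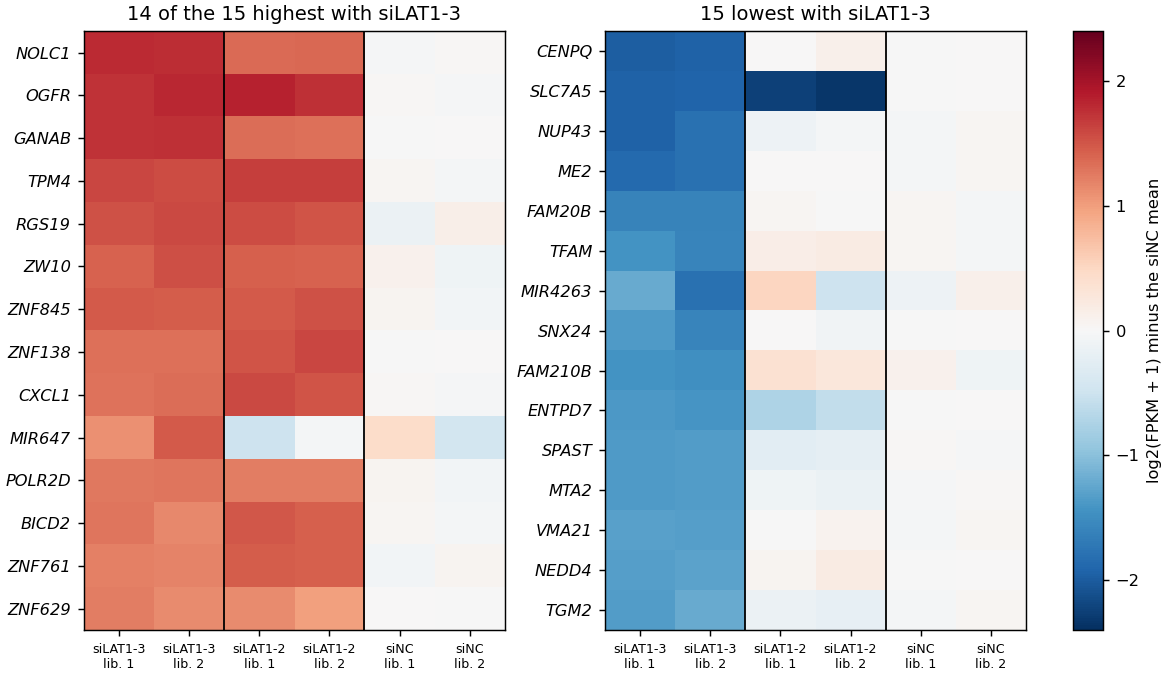
Log2(FPKM + 1) minus the siNC mean (colour) for 14 of the 15 highest and the 15 lowest genes of siLAT1-3 against siNC (rows) in each of the 6 libraries (columns, siLAT1-3, siLAT1-2 and siNC, 2 each). Most of the highest genes are red with both siRNAs, whereas most of the lowest, from CENPQ at -1.96 to TGM2 at -1.28, are blue with siLAT1-3 and close to siNC with siLAT1-2; SLC7A5 is blue with both.

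Over all 11678 genes, 2981 (25.5%) differed between the siRNAs, 1446 higher (12.4%) and 1535 lower (13.1%) with siLAT1-3, which is the background for list counts between the siRNAs. That total was 1964 without siLAT1-3 replicate 2 and 1958 without siLAT1-2 replicate 1. The 6 genes furthest below siLAT1-2 were CENPQ (log2 difference -2.03), ME2 (-1.83), NUP43 (-1.78), FAM210B (-1.77), TFAM (-1.69) and FAM20B (-1.61). In the other direction stood CYB5R3, a cytochrome b5 reductase (log2 difference 2.0), SGPL1, the lyase that breaks down sphingosine-1-phosphate (1.98), a gene with only a clone name (1.63), MIR647 (1.55), F2RL1, a protease-activated receptor (1.5), and SDHC, a membrane subunit of succinate dehydrogenase (1.49). CYB5R3 stood at 22.3 and 23.2 FPKM with siLAT1-3, 5.5 and 4.44 FPKM with siLAT1-2, and 23.2 and 23.0 FPKM with siNC. SDHC stood at 80.5 and 80.7 FPKM with siLAT1-3, 28.0 and 28.3 FPKM with siLAT1-2, and 80.5 and 82.7 FPKM with siNC. The siLAT1-3 libraries of CYB5R3 and SDHC thus lay beside siNC, and neither gene was called against it (adjusted p = 0.86 and 0.680). MIR647 lost this call too without siLAT1-3 replicate 2 or siLAT1-2 replicate 1 (adjusted p = 0.0642 and 0.0567).

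Many genes of the amino acid response rose with siLAT1-3. Of 41 tested, 21 rose (51.2%, against 17.9% of all genes), 2 fell and 18 were not called, and the median log2 fold change was 0.12 against 0.018 over all genes. Between 16 and 22 members were higher in each of the alternatives without a minimum fold change. TRIB3, a pseudokinase induced by ATF4 that restrains it in turn, stood at 21.0 and 21.6 FPKM with siLAT1-3, 19.3 and 19.6 FPKM with siLAT1-2, and 9.94 and 10.95 FPKM with siNC (log2 0.97, adjusted p = 3.7e-05). GPT2, the mitochondrial alanine transaminase, stood at 21.4 and 21.2 FPKM with siLAT1-3, 18.3 and 19.1 FPKM with siLAT1-2, and 11.8 and 12.03 FPKM with siNC (log2 0.79, adjusted p = 2.88e-05). Both genes lay above siNC in every siRNA library, and GPT2 was called higher with siLAT1-3 than with siLAT1-2 (log2 difference 0.18). The mitochondrial protease gene LONP1 (log2 0.63), the transcription factor gene JDP2 (0.50) and ASNS, asparagine synthetase (0.40), rose as well, as did ATF4 itself. ATF4 stood at 137 and 138 FPKM with siLAT1-3, 107.2 and 107.3 FPKM with siLAT1-2, and 117 and 112 FPKM with siNC (log2 0.26, adjusted p = 1.11e-03). It was thus highest with siLAT1-3 and, at log2 -0.09, not called with siLAT1-2. The serine synthesis genes PHGDH and PSAT1 rose by log2 0.20 and 0.29. The 2 members that fell were SLC3A2 and EIF2AK3 (log2 -0.26), the kinase PERK, and 1 was lower with any 1 of the 4 libraries left out. The cystine transporter gene SLC7A11 (log2 0.12, adjusted p = 0.154) and CHAC1, which degrades glutathione (-0.09, adjusted p = 0.531), were not called. With siLAT1-2, 17 members rose and 4 fell against the same siNC libraries, where 18.6% of all genes rose and 13.9% fell. Set against siLAT1-2 directly, 12 of the 41 were higher with siLAT1-3 (against 12.4% of all genes) and 2 were lower (against 13.1%).

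ATF4 acts with C/EBP partners at the amino acid response element, and the promoters of this list were read for its core, TGATGNAA, on both strands in the 250 bases before the RefSeq start. Of the 32 members with a promoter sequence 4 held it (12.5%), against 1104 of 35116 promoters (3.14%). For the list 1 promoter was read per gene, whereas the 35116 were not reduced to 1 per gene. The list was drawn up as amino acid response genes and ATF4 targets, so a higher share in it is not an independent result. All 4 genes with a match are shown, of which 3 were called higher with siLAT1-3 and 1 was not called. In the whole list 51.2% of the tested members were called higher. The 80 bases around each match are from RefSeq (GRCh38.p14), 5′ to 3′ on the strand of the gene, with the core in capitals, and lie at chr7:97872433-97872512 (minus strand, ASNS), chr1:212565180-212565259 (plus, ATF3), chr16:70289650-70289729 (minus, AARS1, called AARS in the deposited table) and chr15:40953226-40953305 (plus, CHAC1).
ASNS: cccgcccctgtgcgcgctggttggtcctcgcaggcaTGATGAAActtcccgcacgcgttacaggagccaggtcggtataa
ATF3: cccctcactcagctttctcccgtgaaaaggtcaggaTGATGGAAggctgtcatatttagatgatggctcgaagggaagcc
AARS1: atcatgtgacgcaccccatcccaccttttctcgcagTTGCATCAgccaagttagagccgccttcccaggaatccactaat
CHAC1: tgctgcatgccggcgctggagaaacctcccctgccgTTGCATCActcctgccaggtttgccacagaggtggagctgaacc
The core begins 68 bases before the start in ASNS, 191 in ATF3, 187 in AARS1 and 209 in CHAC1, and the AARS1 and CHAC1 matches are on the opposite strand. ASNS stood at 24.3 and 24.1 FPKM with siLAT1-3, 21.5 and 22.03 FPKM with siLAT1-2, and 17.7 and 18.5 FPKM with siNC (adjusted p = 3.98e-04). ATF3, a stress-induced transcription factor, stood at 12.3 and 11.7 FPKM with siLAT1-3, 11.6 and 11.9 FPKM with siLAT1-2, and 10.3 and 10.2 FPKM with siNC (log2 0.21, adjusted p = 0.0108). CHAC1 stood at 3.24 and 2.88 FPKM with siLAT1-3, 2.57 and 2.76 FPKM with siLAT1-2, and 2.99 and 3.66 FPKM with siNC. The siLAT1-3 and siNC libraries of CHAC1 overlapped, whereas those of ASNS and ATF3 did not. AARS, the alanyl-tRNA synthetase, rose by log2 0.12 (adjusted p = 0.0258). AARS lost its call without siLAT1-3 replicate 1, siNC replicate 1 or siNC replicate 2 (adjusted p = 0.114, 0.134 and 0.0790), as did ATF3 (0.0564, 0.0556 and 0.0604). A match describes these letters and not a bound site.

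**Figure D4:**
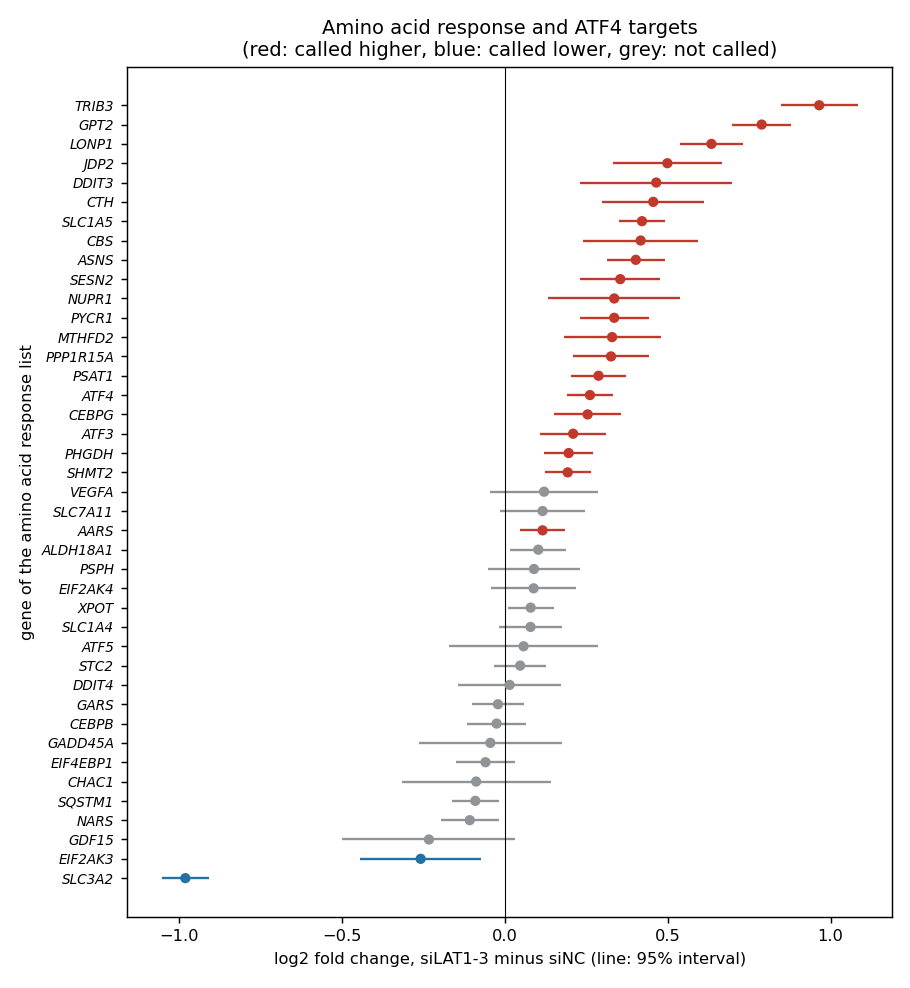
Log2 fold change of siLAT1-3 minus siNC (horizontal axis) with its 95% interval (line) for the 41 tested genes of the amino acid response list (rows), coloured by call. The 21 genes called higher run from AARS at 0.12 to TRIB3 at 0.97, while SLC3A2 at -0.98 and EIF2AK3 are the 2 called lower.

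Among the carriers, the System L list besides SLC7A5 and SLC3A2 moved little. SLC7A6, the y+LAT2 light chain that also pairs with 4F2hc, rose by log2 0.22, a call that was lost without any 1 of the 4 libraries (adjusted p = 0.0664 to 0.0947). SLC43A2 (log2 0.09, adjusted p = 0.306) and SLC7A8, which encodes LAT2 (-0.03, adjusted p = 0.887), were not called. Of 20 other amino acid carriers 4 rose and 4 fell, with a median of -0.04. Both shares lay only a little above those over all genes, 17.9% higher and 13.6% lower. The glutamine carrier gene SLC1A5 stood at 113 and 118 FPKM with siLAT1-3, 97.1 and 97.2 FPKM with siLAT1-2, and 86.2 and 85.8 FPKM with siNC (log2 0.42, adjusted p = 1.235e-04). It was highest with siLAT1-3. The cationic amino acid carrier gene SLC7A1 rose by log2 0.39, while the mitochondrial glutamate carrier gene SLC25A22 (-0.93) and the lysosomal carrier gene SLC36A1 (-0.45) fell. SLC25A22 fell to 6.71 and 6.27 FPKM with siLAT1-3, against 16.8 and 18.0 FPKM with siLAT1-2 and 12.7 and 13.9 FPKM with siNC. The siRNAs thus stood on opposite sides of siNC for SLC25A22 (log2 0.37, called, with siLAT1-2). Without siNC replicate 1 or siNC replicate 2, 2 carriers in place of 4 were called higher.

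Of the 20 cytosolic aminoacyl-tRNA synthetases, which charge transfer RNAs with their amino acids, 8 rose and 2 fell, with a median of 0.10. The lysyl-tRNA synthetase gene KARS stood at 132 and 135 FPKM with siLAT1-3, 129 and 129.6 FPKM with siLAT1-2, and 106 and 103 FPKM with siNC (log2 0.35, adjusted p = 2.45e-04), and SARS rose by 0.17. The count of higher members was 5 without siLAT1-3 replicate 1, 3 without siNC replicate 1 and 5 without siNC replicate 2, and 1 was lower without any 1 of the 4. In the mTORC1 and amino acid sensing list 3 of 40 rose and 5 fell, both below the shares over all genes, with a median of -0.05. MTOR (log2 -0.06, adjusted p = 0.290) and RPTOR (-0.04, adjusted p = 0.604), which encode the kinase and the scaffold of the complex, were not called. The sestrins, inhibitors upstream of mTORC1, moved apart. SESN2, a leucine sensor and ATF4 target, rose (log2 0.35, adjusted p = 2.83e-03). SESN3 fell to 3.05 and 3.06 FPKM with siLAT1-3, against 5.11 and 5.47 FPKM with siLAT1-2 and 6.1 and 5.8 FPKM with siNC (log2 -0.78, adjusted p = 1.81e-04). SEC13 (-0.63), shared by the GATOR2 complex and vesicle coats, and EIF4EBP2 (-0.36), a repressor of translation that mTORC1 inactivates, fell too. The count of lower members was 3 without siLAT1-3 replicate 2, siNC replicate 1 or siNC replicate 2.

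Methionine cycle, salvage and polyamine genes were divided. Of 35, 10 were higher (28.6%, against 17.9% of all genes) and 8 lower (22.9%, against 13.6%), with a median of 0.03. Those of transsulfuration rose, CTH (log2 0.46, adjusted p = 2.74e-03) and CBS (0.42, adjusted p = 6.33e-03). ADI1, a dioxygenase of methionine salvage, fell to 17.8 and 18.0 FPKM with siLAT1-3, against 38.3 and 39.0 FPKM with siLAT1-2 and 32.8 and 33.8 FPKM with siNC (log2 -0.86, adjusted p = 1.42e-05). OAZ1, the antizyme that targets ornithine decarboxylase for destruction, fell to 56.4 and 59.2 FPKM, against 95.1 and 94.1 FPKM with siLAT1-2 and 89.5 and 93.2 FPKM with siNC (log2 -0.65, adjusted p = 4.34e-05). Both were low with siLAT1-3 alone. AMD1, the S-adenosylmethionine decarboxylase, was not called (log2 0.02, adjusted p = 0.794). Without siLAT1-3 replicate 2 the counts were 6 higher and 4 lower, and 5 were lower without siNC replicate 1 or siNC replicate 2.

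In the list of PRC2 subunits more members were higher than lower with siLAT1-3. Of 14 tested, 9 rose, 0 fell by limma (1 at an unadjusted p under 0.05) and 5 were not called, with a median of 0.20. The histone chaperone RBBP4, shared with other chromatin complexes, stood at 29.1 and 28.7 FPKM with siLAT1-3, 20.3 and 19.1 FPKM with siLAT1-2, and 20.2 and 20.9 FPKM with siNC (log2 0.47, adjusted p = 2.71e-04). It was high with siLAT1-3 alone. PHF19, an accessory subunit that reads methylated histone tails, rose by log2 0.36 (adjusted p = 1.18e-03). The core subunit SUZ12 stood at 25.6 and 24.5 FPKM with siLAT1-3, 22.7 and 21.8 FPKM with siLAT1-2, and 22.9 and 22.3 FPKM with siNC (log2 0.14, adjusted p = 0.0336). EED rose by log2 0.19 (adjusted p = 0.0353). Neither was called with no filter on low values (limma adjusted p = 0.0942 for SUZ12 and 0.119 for EED) or with median centring (0.0501 and 0.0516). EED also lost its call under quantile normalization (0.0578), with the 4 siLAT1-3 and siNC libraries alone (0.0511) and with a replicate block (0.0501). SUZ12 lost its call without any 1 of the 4 libraries (adjusted p = 0.0509 to 0.156), and EED without siLAT1-3 replicate 2, siNC replicate 1 or siNC replicate 2 (0.146, 0.0866 and 0.163). The count of 9 became 3 when siLAT1-3 replicate 2 was left out, 2 and 4 for siNC replicates 1 and 2, and 4 with no filter on low values.

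In the other chromatin lists KDM2B, which brings a PRC1 complex to CpG islands, rose to 2.49 and 2.61 FPKM with siLAT1-3, against 3.13 and 2.8 FPKM with siLAT1-2 and 1.26 and 1.31 FPKM with siNC (log2 0.64, adjusted p = 1.57e-03). Of 23 PRC1 subunits 5 rose (21.7%, against 17.9% of all genes) and 1 fell (4.3%, against 13.6%), with a median of 0.10. CBX6 (log2 0.56) and CBX2 (0.53), which bind the methyl mark that EZH2 writes, and PCGF6 (0.53) rose with KDM2B. Of 46 histone and DNA methylation enzymes 11 rose (23.9%, against 17.9% of all genes) and 6 fell (13.0%, against 13.6%). Their median was 0.02. The demethylase gene KDM2A stood at 17.8 and 18.6 FPKM with siLAT1-3, 19.4 and 19.3 FPKM with siLAT1-2, and 10.7 and 11.1 FPKM with siNC (log2 0.69, adjusted p = 5.63e-05). KDM2A and KDM2B lay above siNC in every siRNA library. The H3 lysine methyltransferase genes DOT1L (0.55) and SUV39H2 (0.46) rose and the demethylase gene KDM4C (-0.49) fell. Without siNC replicate 1 no PRC1 subunit was called lower by limma (1 at an unadjusted p under 0.05 in the full fit). The count of 6 lower enzymes was 3 without siLAT1-3 replicate 1 or siNC replicate 1.

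Called genes of DNA replication were mostly higher and called genes of G2 and mitosis mostly lower. Of 56 replication genes 27 rose and 3 fell, with a median of 0.11. MCM3, a subunit of the replicative helicase, stood at 157 and 159.5 FPKM with siLAT1-3, 145 and 141 FPKM with siLAT1-2, and 114 and 115 FPKM with siNC (log2 0.46, adjusted p = 5.87e-05). The uracil glycosylase gene UNG (0.47), E2F1 (0.45) and the origin recognition gene ORC1 (0.41) rose as well. DSCC1, which helps load the sliding clamp for cohesion of sister chromatids, went the other way. It stood at 16.9 and 15.9 FPKM with siLAT1-3, 26.1 and 27.2 FPKM with siLAT1-2, and 29.5 and 30.9 FPKM with siNC (log2 -0.84, adjusted p = 4.34e-05). The count of 27 was 17 without either siLAT1-3 library and 15 without siNC replicate 1.

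Of 57 genes of G2 and mitosis 4 rose and 24 fell, with a median of -0.09. CDK1, the mitotic kinase, fell to 24.9 and 27.1 FPKM with siLAT1-3, against 36.3 and 36.5 FPKM with siLAT1-2 and 38.3 and 41.6 FPKM with siNC (log2 -0.60, adjusted p = 3.225e-04). It was low with siLAT1-3 alone. The securin gene PTTG1 (-0.37) and HMMR (-0.35) fell, and CDC25A (0.54), a phosphatase that also acts at the start of S phase, rose. The count of lower members was 14 without siNC replicate 1 and 15 without siNC replicate 2, and that of higher members 2, 1 and 2 on leaving out siLAT1-3 replicate 1, siNC replicate 1 and siNC replicate 2. Between the siRNAs, 17 of the 57 were lower with siLAT1-3 than with siLAT1-2 (against 13.1% of all genes) and 9 were higher (against 12.4%).

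CDKN1A, the cyclin-dependent kinase inhibitor p21, fell to 11.8 and 11.7 FPKM with siLAT1-3, against 12.4 and 10.8 FPKM with siLAT1-2 and 25.2 and 24.2 FPKM with siNC (log2 -1.01, adjusted p = 6.83e-05). The siRNAs overlapped for it and both lay under siNC. Of 22 G1 cyclins, kinases and inhibitors 7 rose and 4 fell, with a median of 0.00. MYC (log2 0.32) and cyclin E gene CCNE1 (0.39) rose, and the cyclin D2 gene CCND2 (-0.47) fell. CCND1, cyclin D1, stood at 214 and 208 FPKM with siLAT1-3, 169 and 181 FPKM with siLAT1-2, and 243 and 255 FPKM with siNC (log2 -0.24, adjusted p = 5.66e-03), between the other groups.

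Sterol and fatty acid synthesis genes were more often lower. Of 39, 5 rose and 16 fell (41.0%, against 13.6% of all genes), with a median of -0.14, and the count of 16 kept within 1.5 times in each leave-out. HMGCS1, which makes the HMG-CoA that feeds the sterol pathway, fell to 31.0 and 34.1 FPKM with siLAT1-3, against 53.02 and 51.5 FPKM with siLAT1-2 and 74.1 and 75.1 FPKM with siNC (log2 -1.17, adjusted p = 1.70e-05). STARD4, a carrier of cholesterol inside cells, fell to 4.83 and 5.02 FPKM, against 7.64 and 6.83 FPKM with siLAT1-2 and 11.7 and 11.4 FPKM with siNC (log2 -1.08, adjusted p = 4.70e-05). For HMGCS1 and STARD4 the siLAT1-2 libraries lay between the other groups. The desaturase gene SCD (-0.57) and MSMO1, a sterol oxidase (-0.55), fell. The count of higher members was 3 without siLAT1-3 replicate 2, siNC replicate 1 or siNC replicate 2. Between the siRNAs, 13 of the 39 were lower with siLAT1-3 than with siLAT1-2 (against 13.1% of all genes) and 4 were higher (against 12.4%).

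In the hypoxia and glycolysis list 3 of 45 rose and 16 fell, with a median of -0.10. TPI1, triosephosphate isomerase, fell to 177 and 193 FPKM with siLAT1-3, against 359 and 353 FPKM with siLAT1-2 and 402 and 391 FPKM with siNC (log2 -1.09, adjusted p = 1.70e-05). HIF1A, the oxygen-regulated subunit of the hypoxia factor, fell to 82.4 and 80.5 FPKM, against 99.2 and 104 FPKM with siLAT1-2 and 130.2 and 134 FPKM with siNC (log2 -0.69, adjusted p = 2.88e-05). With siLAT1-2, TPI1 fell by only 0.16 on the log2 scale and HIF1A by 0.37 against the same siNC libraries. BNIP3 (-0.60), which acts in mitophagy, and LDHA, lactate dehydrogenase (-0.42), fell as well. The count of lower members was 8 without siLAT1-3 replicate 1, 7 without siNC replicate 1 and 6 without the filter on low values. Higher members numbered 1 without siNC replicate 2.

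Of 34 genes of the NRF2 and glutathione list 3 rose and 10 fell, with a median of -0.06, and NFE2L2, which encodes NRF2, was not called (log2 -0.08, adjusted p = 0.1). The cytosolic malic enzyme gene ME1 stood at 72.6 and 72.3 FPKM with siLAT1-3, 67.2 and 65.3 FPKM with siLAT1-2, and 43.1 and 44.6 FPKM with siNC (log2 0.71, adjusted p = 1.91e-05). TXNRD1, thioredoxin reductase, fell by log2 0.31 and the drug exporter gene ABCC3 by 0.38. FTL, the ferritin light chain and the most abundant transcript of the lists, stood at 2933 and 3015 FPKM with siLAT1-3, 4035 and 3907 FPKM with siLAT1-2, and 4643 and 4617 FPKM with siNC (log2 -0.64, adjusted p = 3.99e-05). The sign for FTL turned under quantile normalization (log2 0.13, adjusted p = 0.263). The count of lower members was 6 without siLAT1-3 replicate 1 or siNC replicate 1, and that of higher members 1 without siLAT1-3 replicate 1, siNC replicate 1 or siNC replicate 2.

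Of 34 endoplasmic reticulum chaperone and unfolded protein response genes 19 rose and 5 fell, with a median of 0.12. Besides GANAB, CRELD2 (log2 0.35) and P4HB, a subunit of the collagen prolyl hydroxylase (0.31), rose. The oxidase gene ERO1LB fell to 0.8 and 0.7 FPKM with siLAT1-3, against 2.08 and 2.03 FPKM with siLAT1-2 and 1.82 and 2.13 FPKM with siNC (log2 -0.76, adjusted p = 1.50e-03). HSPA5, the chaperone BiP and the usual marker of this response, stood at 269.7 and 274 FPKM with siLAT1-3, 261 and 261.1 FPKM with siLAT1-2, and 270.4 and 275 FPKM with siNC, and was not called (log2 0.00, adjusted p = 0.958). Most changes in this list were small and their count moved with each library, to 11 and 8 higher without siLAT1-3 replicates 1 and 2 and to 9 and 6 without siNC replicates 1 and 2. The count of lower members was 2 and 3 without siLAT1-3 replicates 1 and 2 and 2 without either siNC library. Of 47 autophagy and lysosome genes 6 rose and 8 fell, with a median of -0.02. The autophagy receptor gene OPTN (log2 -0.53) and ATG12 (-0.38) fell, ATG14 (0.47) rose and the lysosomal membrane gene LAMP1 was not called (0.03, adjusted p = 0.486). The count of 8 was 4 without siLAT1-3 replicate 2 and 2 without either siNC library.

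Of 45 ribosome biogenesis and MYC-linked genes 17 rose and 1 fell, with a median of 0.09. Besides NOLC1 and MYC, the pseudouridine synthase gene DKC1 stood at 60.2 and 59.3 FPKM with siLAT1-3, 52.0 and 54.2 FPKM with siLAT1-2, and 44.1 and 45.3 FPKM with siNC (log2 0.41, adjusted p = 2.19e-04). NIP7 (0.26) and the RNA acetyltransferase gene NAT10 (0.25) rose too. The count of 17 was 10, 9 and 10 on leaving out siLAT1-3 replicate 1, siNC replicate 1 and siNC replicate 2, and 0 were lower by limma with any 1 of the 4 left out (2 at an unadjusted p under 0.05 in the full fit). Of 76 cytosolic ribosomal protein genes 3 rose (3.9%, against 17.9% of all genes) and 9 fell (11.8%, against 13.6%), with a median of -0.01. RPL31 fell to 31.0 and 33.4 FPKM with siLAT1-3, against 52.2 and 54.5 FPKM with siLAT1-2 and 55.1 and 56.1 FPKM with siNC (log2 -0.77, adjusted p = 4.70e-05), and RPL35A by 0.67. RPL11 (log2 0.20), which also binds MDM2, rose. Ribosomal protein genes share sequence with many pseudogenes, so their values are uncertain. The count of 9 was 3, 4 and 2 on leaving out siLAT1-3 replicate 1, siNC replicate 1 and siNC replicate 2.

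The respiratory chain showed few changes next to the fall of TFAM. Of 71 nuclear genes 9 rose (12.7%, against 17.9% of all genes) and 2 fell (2.8%, against 13.6%), with a median of 0.01. CYCS, which encodes cytochrome c, stood at 125 and 117 FPKM with siLAT1-3, 119 and 129 FPKM with siLAT1-2, and 92.9 and 90.6 FPKM with siNC (log2 0.39, adjusted p = 1.43e-03). Both siRNAs lay above siNC for CYCS. The count of 9 was 5 without siLAT1-3 replicate 1 or siNC replicate 1, and the count of 2 was 0 by limma without siLAT1-3 replicate 2 or either siNC library (6 lower at an unadjusted p under 0.05 in the full fit). Of 15 transcripts of the mitochondrial genome 0 were called by limma in either direction, with 0 higher and 2 lower at an unadjusted p under 0.05, and the median was -0.20. MT-CO1, a subunit of cytochrome c oxidase, stood at 1284 and 1394 FPKM with siLAT1-3, 1066 and 1439 FPKM with siLAT1-2, and 1500.3 and 1574 FPKM with siNC (adjusted p = 0.278). Both siLAT1-3 libraries of MT-CO1 lay under both siNC libraries, and the siLAT1-2 libraries were wide apart. In a fit of the 4 siLAT1-3 and siNC libraries alone 7 of these transcripts were lower. With siLAT1-2, 8 of the 15 were lower and 0 higher against the same siNC libraries, where 13.9% of all genes fell. Their median with siLAT1-2 was -0.34, while TFAM was not called with that siRNA (log2 0.18).

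Among squamous genes those of terminal differentiation leaned lower. Of 19 tested 1 rose and 6 fell, with a median of -0.15, while 26 of the list stood under the filter. KRT80, a keratin of differentiating epithelium, fell to 21.98 and 19.7 FPKM with siLAT1-3, against 29.5 and 28.7 FPKM with siLAT1-2 and 37.9 and 38.9 FPKM with siNC (log2 -0.85, adjusted p = 7.47e-05). Periplakin (PPL) fell by 0.75 and envoplakin (EVPL), its partner in the cornified envelope, rose by 0.43. TGM1, which cross-links that envelope, was not called (log2 -0.22, adjusted p = 0.0688). Of 42 basal squamous genes 7 rose and 12 fell, with a median of -0.04. PERP, a protein of desmosomes, stood at 113 and 107.5 FPKM with siLAT1-3, 115 and 113 FPKM with siLAT1-2, and 62.5 and 59.3 FPKM with siNC (log2 0.85, adjusted p = 2.39e-05). The lineage factor SOX2 (0.44) and the hemidesmosome collagen COL17A1 (0.48) rose and the integrin gene ITGA3 (-0.63) fell. TP63 (log2 0.07, adjusted p = 0.114) and KRT14 (-0.19, adjusted p = 0.136) were not called. The count of 12 was 6 without siLAT1-3 replicate 1 or siNC replicate 2. Set against siLAT1-2 directly, 18 of the 42 were higher with siLAT1-3 (against 12.4% of all genes) and 1 was lower (against 13.1%).

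Of 36 mesenchymal and matrix genes 6 rose and 13 fell, with a median of -0.08. TGFBR2, the type II receptor for TGF-beta, fell to 20.5 and 20.6 FPKM with siLAT1-3, against 38.2 and 41.1 FPKM with siLAT1-2 and 40.8 and 43.9 FPKM with siNC (log2 -1.01, adjusted p = 2.88e-05). The receptor kinase gene AXL fell to 26.8 and 28.7 FPKM, against 44.6 and 44.6 FPKM with siLAT1-2 and 42.1 and 43.7 FPKM with siNC (log2 -0.61, adjusted p = 9.34e-05). TGFBR2 and AXL were low with siLAT1-3 alone. CYR61, a matrix protein induced by YAP, rose by log2 0.80, whereas CTGF, a matrix protein likewise induced by YAP, fell to 4.0 and 4.43 FPKM, against 5.84 and 7.3 FPKM with siLAT1-2 and 6.62 and 6.41 FPKM with siNC (log2 -0.53, adjusted p = 6.96e-03). The call of CTGF was lost without siNC replicate 1 (adjusted p = 0.0504). The count of higher members was 3 without siLAT1-3 replicate 2 or siNC replicate 2. Of 30 EGFR ligands and MAPK feedback genes 7 rose (23.3%, against 17.9% of all genes) and 5 fell (16.7%, against 13.6%). Their median was 0.08. The ligand genes TGFA (log2 0.52), NRG1 (0.50) and EREG (0.45) rose, as did the immediate early gene IER2 (0.55), and SPRED1, an inhibitor of RAS signalling, fell (-0.49). TGFA stood at 10.2 and 9.86 FPKM with siLAT1-3, 6.13 and 6.1 FPKM with siLAT1-2, and 6.63 and 6.81 FPKM with siNC, so it was high with siLAT1-3 alone. The count of lower members was 2 without siNC replicate 1 and 3 without siNC replicate 2.

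The neutrophil chemokine genes CXCL1 and CXCL2 both rose with siLAT1-3. CXCL1 stood at 59.3 and 60.8 FPKM with siLAT1-3, 72.6 and 68.9 FPKM with siLAT1-2, and 24.0 and 23.0 FPKM with siNC (log2 1.32, adjusted p = 8.46e-06). CXCL2 stood at 5.57 and 5.75 FPKM with siLAT1-3, 6.9 and 5.98 FPKM with siLAT1-2, and 2.52 and 1.63 FPKM with siNC (log2 1.13, adjusted p = 1.29e-03). Both lay above siNC in every siRNA library. In their list of NF-kB targets and inflammatory mediators 10 of 33 rose and 3 fell, with a median of 0.06. The prostaglandin synthase gene PTGS2 (log2 0.77) and the inhibitor gene NFKBIB (0.56) rose. Between the siRNAs, 1 of the 33 was higher with siLAT1-3 than with siLAT1-2 (against 12.4% of all genes) and 16 were lower (against 13.1%). The count of 3 lower members was 1 without siLAT1-3 replicate 2 or siNC replicate 1.

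Of 31 interferon-stimulated genes 0 rose by limma (0 at an unadjusted p under 0.05) and 8 fell, with a median of -0.06. IFIT2 fell to 4.57 and 4.4 FPKM with siLAT1-3, against 3.33 and 3.43 FPKM with siLAT1-2 and 7.45 and 7.23 FPKM with siNC (log2 -0.60, adjusted p = 3.49e-04). UBE2L6, the conjugating enzyme for ISG15, fell by 0.52, SAMD9 by 0.51 and IFIT3 by 0.38. ISG15 (log2 -0.14, adjusted p = 0.0906) was not called. The count of 8 was 4 without siLAT1-3 replicate 2 or siNC replicate 1 and 5 without siNC replicate 2, and without siNC replicate 1 a single member was higher. B2M, the light chain of HLA class I, was not called (log2 -0.03, adjusted p = 0.468). Of 21 antigen presentation genes 4 rose (19.0%, against 17.9% of all genes) and 3 fell (14.3%, against 13.6%), with a median of 0.03. These counts were 1 and 1 without siLAT1-3 replicate 2, 0 and 0 without siNC replicate 1, and 0 and 1 without siNC replicate 2, and 1 was lower without siLAT1-3 replicate 1.

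For the small RNA machinery, through which siRNAs act, the called shares lay near those over all genes. Of 18 genes 3 rose (16.7%, against 17.9% of all genes) and 3 fell (16.7%, against 13.6%), with a median of -0.06. DROSHA, which cuts primary microRNAs in the nucleus, stood at 29.2 and 29.3 FPKM with siLAT1-3, 27.5 and 25.9 FPKM with siLAT1-2, and 15.8 and 15.7 FPKM with siNC (log2 0.85, adjusted p = 2.39e-05). DICER1, which cuts their precursors in the cytoplasm, fell to 12.4 and 11.7 FPKM, against 17.7 and 19.1 FPKM with siLAT1-2 and 19.95 and 19.97 FPKM with siNC (log2 -0.69, adjusted p = 1.39e-04). TNRC6A, the Argonaute partner GW182, fell to 13.8 and 12.7 FPKM with siLAT1-3, against 6.49 and 6.45 FPKM with siLAT1-2 and 20.3 and 19.9 FPKM with siNC (log2 -0.57, adjusted p = 3.01e-04). DICER1 was thus lowest with siLAT1-3 and TNRC6A lowest with siLAT1-2. The helicase gene DDX6 fell by log2 0.42, and AGO2, the Argonaute that cuts siRNA targets, was not called (0.07, adjusted p = 0.263).

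**Figure D5:**
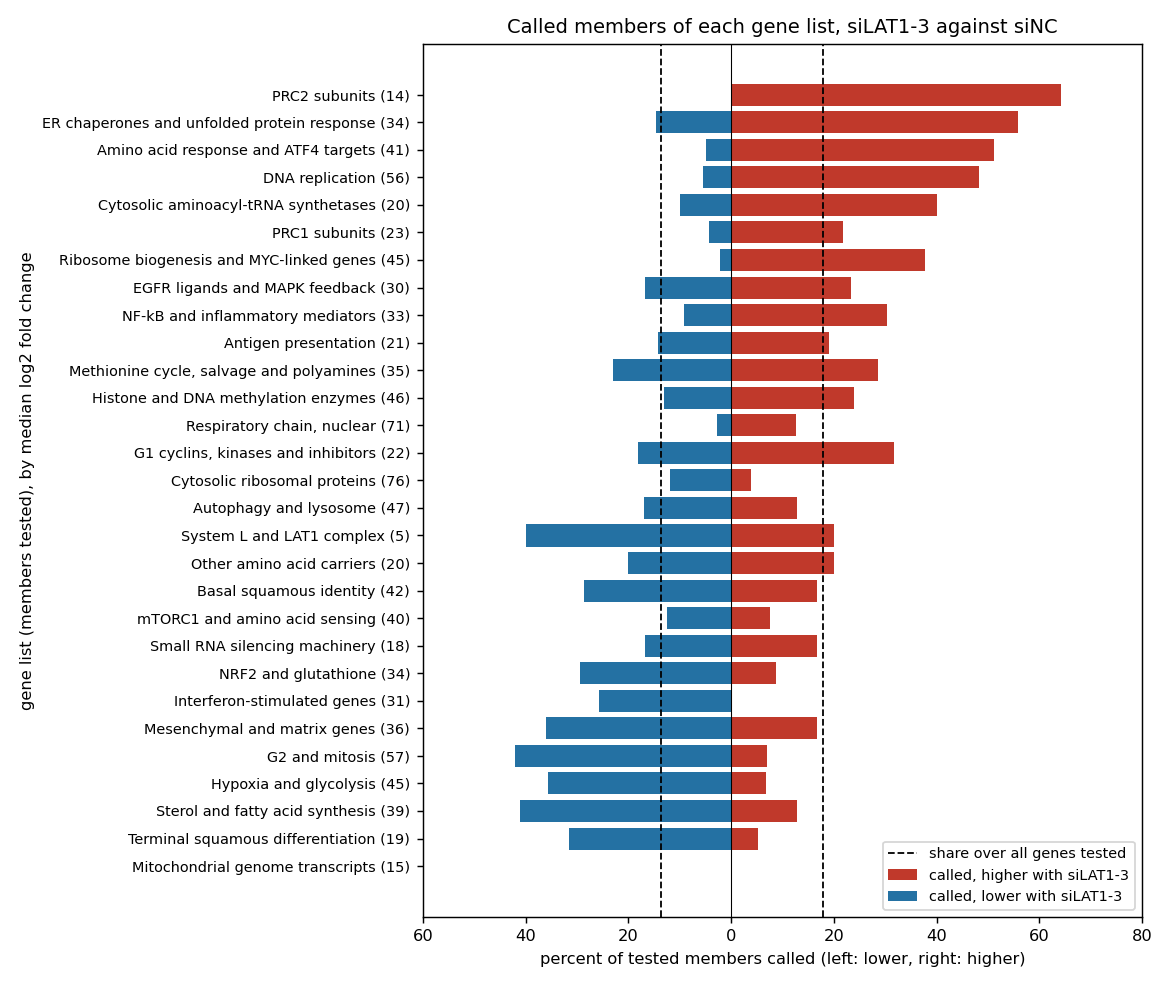
Percent of the tested members of each of 29 gene lists called higher (right) and lower (left) with siLAT1-3 against siNC, with lists in order of their median log2 fold change and the number tested in brackets. The dashed lines mark the shares over all genes tested, 17.9% higher and 13.6% lower; the amino acid response has 51.2% higher, and no mitochondrial genome transcript was called.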

How the data were processed

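RNA-seq values of 6 KYSE510 libraries were read from the table the authors deposited, 1 column per library. The values deposited by the authors are taken as FPKM, and how the authors made them is not given in the sources used here. No label or header names the unit, which is read from the values: columns summed to 245634 to 252774 and low values of short RNA genes rise in steps of 1 read. The depth that best fits these steps made 83.5% to 89.3% of them whole within 0.12 reads (24% by chance for a depth fixed beforehand; the best of many searched has a higher chance value, which was not found). Intervals cover the spread between libraries only. Tools named without a role in the submitters' processing notes are STAR, Bowtie, Bowtie2, Picard, Trim Galore and SEACR, and the builds hg38 and hg19. The counting program, gene lengths and strand setting are not given in the sources used here, so reads of overlapping, antisense or paralogous genes may be shared.

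Titles give both siNC libraries the number 1, whereas descriptions number them 1 and 2 and were followed. No other columns of per-library values were used. The filter kept genes that averaged 1 FPKM or more across the 6 libraries. The model, limma 3.58.1 with a trend (R 4.3.3), took log2(FPKM + 1) in 3 groups of 2, without a block. Contrasts were siLAT1-3 minus siNC, siLAT1-3 minus siLAT1-2 and siLAT1-2 minus siNC, of which those against siNC share its libraries. Benjamini-Hochberg adjustment ran over all 11678 genes. Simulated data with 50 changed genes a step served to test the fit. It called 20 of 50 at a log2 change of 0.25, 47 at 0.5, 50 at 1 and 50 at -1. Another 21 calls were false. Few genes were changed in it, whereas 31.4% were called in the real data, and real spread need not match.

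The comparison, the 33 gene lists and the rule for named genes were chosen with earlier results of these data known, so no pattern here is independent support for them. Of 1169 symbols listed, 1002 were tested. Named were SLC7A5, SLC3A2 and EZH2, the 15 highest and 15 lowest called genes with a mean log2 of at least 2, up to 5 called and 2 uncalled members a list, and the 6 largest differences a direction between the siRNAs; some that met the rule are left out. ATF4, ASNS, ATF3, AARS, SUZ12, EED, LDHA, CCND1, PHGDH, PSAT1 and EIF2AK3 were named after their values were seen. Promoters came from RefSeq (GRCh38.p14), matched by gene identifier or symbol. Alternatives were quantile normalization, a filter at 5 FPKM or none, a pseudocount of 0.1, median centring, the 4 libraries alone, a replicate block, a minimum absolute log2 change of 1 and each library left out. Where that left 1 library in a group, the lone library was assumed to vary like the others. Plots were drawn with Python 3.11.15 and matplotlib 3.10.9. Some genes and 1 gene list are not reported here.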

Additional observations from a re-analysis of the deposited data

How the results depend on the processing

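Each setting below gives, in order, all calls of siLAT1-3 against siNC, those higher, those lower, all calls of siLAT1-3 against siLAT1-2 and called list members, which were 3672, 2086, 1586, 2981 and 380. Without the filter on low values they were 2402, 1346, 1056, 1823 and 235. With a minimum absolute log2 change of 1 they were 97, 48, 49, 75 and 10, and SLC3A2 (log2 -0.98) missed that minimum. With 1 library left out they ranged from 2138 to 2584, 1199 to 1482, 928 to 1183, 1958 to 2106 and 222 to 271. The cause was not tested, apart from what the minimum fold change and the fewer libraries bring by construction. Same-numbered libraries did not deviate together (r = 0.018, 0.083 and 0.033 for siLAT1-3 with siLAT1-2, siLAT1-3 with siNC and siLAT1-2 with siNC), so the numbers are not taken to pair them. With the replicate block 3375 genes were called, 1920 higher and 1455 lower, and 2703 between the siRNAs. SLC7A5 kept its call in every setting and EZH2 was called in none. Of 209 named results 158 kept direction and call in every setting without a minimum fold, and 1, FTL, turned its sign (log2 0.13 under quantile normalization). Quantile normalization and median centring, with 1843 and 1894 higher and 1769 and 1739 lower, kept all these counts within 1.5 times, as did a pseudocount of 0.1 and the 5 FPKM filter. The 4 libraries alone gave 3514, 2001, 1513 and 375, with no value between the siRNAs. The larger side, or whether there was one, changed in some setting for 9 lists: EGFR, mTORC1, autophagy, basal squamous, antigen presentation, other carriers, ribosomal proteins, small RNA machinery and mitochondrial transcripts. Given as higher and lower, EGFR (7 and 5) was 6 and 7 under quantile normalization, mTORC1 (3 and 5) was 5 and 4 with the 5 FPKM filter and 4 and 3 with the 4 libraries alone, and autophagy (6 and 8) was 5 and 2 without either siNC library. MIR647 and MIR4263, at 1 to 11 reads a library, are limited by depth.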

Other observations

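Zinc finger genes, named as a family after their values were seen, were more often higher than lower with siLAT1-3. These genes mostly encode DNA-binding repressors with runs of C2H2 fingers. Of 670 listed genes with a ZNF symbol and a number, 291 were tested. With siLAT1-3, 116 rose (39.9%, against 17.9% of all genes) and 8 fell (2.7%, against 13.6%), and their median log2 fold change was 0.17, against 0.018 over all genes. Against the same siNC libraries siLAT1-2 gave 108 higher (37.1%, against 18.6% of all genes), 5 lower (against 13.9% of all genes) and a median of 0.18. In the direct comparison 16 of the 291 were higher and 26 lower with siLAT1-3 than with siLAT1-2, against 12.4% and 13.1% of all genes. Among them were 4 of the 15 genes that rose furthest. ZNF845 stood at 11.1 and 11.1 FPKM with siLAT1-3, 11.2 and 11.6 FPKM with siLAT1-2, and 3.56 and 3.21 FPKM with siNC. ZNF138 stood at 7.01 and 6.99 FPKM with siLAT1-3, 8.04 and 8.67 FPKM with siLAT1-2, and 2.15 and 2.22 FPKM with siNC. Many of these genes lie in clusters of close paralogs, so reads may be shared among them, and the family was not tested against other genes.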
